A study of Mus musculus with 6 samples.

Results

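The MEIS, PBX and PKNOX genes encode homeodomain transcription factors of the TALE class, and 8 of them (Meis1, Meis2, Meis3, Pbx2, Pbx3, Pbx4, Pknox1 and Pknox2) were taken by name from 21883 protein-coding mouse genes and followed through H3K27ac profiles of lung mesothelium and lung epithelium. Acetylation of histone H3 at lysine 27 (H3K27ac) marks active promoters and enhancers. CUT&RUN was the assay: a nuclease tethered to an antibody frees the DNA near the mark. Each gene was given a domain, made of the gene body and up to 50 kb on each side, cut midway to the next coding gene. The sequence under the deposited peaks of each library in that domain is called its acetylated length.

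TALE proteins carry extra residues in the loop between the first helices of the homeodomain. MEIS and PKNOX proteins pair with PBX proteins, and these pairs bind DNA beside HOX proteins and sharpen the choice of HOX binding sites. PBX proteins need such a partner to stay in the nucleus. In embryos MEIS and PBX genes are known for roles in mesoderm-derived organs, limbs, heart and blood.

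Lungs of mouse embryos (E16.5) were pooled and sorted. Mesothelium, the outer lining of the lung, was collected as living PDPN+ cells without EPCAM, CD45 or CD31. Epithelium was collected by the same gate with EPCAM present. By title, 25k and 100k cells went into Mesothelium replicates 1 and 2, against 100k and 200k for the Epithelium pair, although a narrower range stands in the protocol. All lungs were from Myrf Fl/Fl matings, so the floxed Myrf allele is shared by both cell types. No Cre is named, and the series text calls the mesothelial cells wildtype. Whether replicates came from separate pools is not stated, so p-values reflect how these libraries vary, perhaps only technically. In such pools, a larger share of cells with the mark and a wider mark per cell cannot be told apart. The IgG control libraries, 2 in number and made from epithelium, were not analysed here.

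The lists held 39006 and 41524 peaks on the main chromosomes in mesothelium, and 47869 and 46632 in epithelium. They give no read counts, so depth is unknown. Listed peaks had a −log10 q, the peak caller's significance, of at least 1.00 to 1.03, with medians of 1.72 and 2.05 in mesothelium and 1.56 and 1.56 in epithelium. A value of at least 2 was reached by 31.5% and 53.1% of the mesothelium peaks and 24.2% and 24.1% of the epithelium peaks. At least 4 was reached by 623 and 2267 mesothelium peaks and 569 and 576 epithelium peaks. Markers of the 2 cell types separated the libraries in part. Of 10 mesothelium markers, 8 were tested and 6 passed the test described below (limma, adjusted p under 0.05) as longer in mesothelium, against 1.39% of all tested domains. The 10 domains summed to 30.3 and 66.1 kb in mesothelium, against 3.17 and 7.21 kb in epithelium. Wt1 carried 6.42 and 19.4 kb in mesothelium, against no peak and 1.47 kb in epithelium. Upk3b had a peak in Mesothelium replicate 2 alone (0.835 kb), and Msln had 0.544 and 0.893 kb in mesothelium against 1.19 and 4.29 kb in epithelium. PDPN was part of both gates, yet the Pdpn domain carried 0.364 kb and no peak in mesothelium, against 10.4 and 8.97 kb in epithelium (log2 difference −3.89, limma adjusted p = 0.00163). Of 12 epithelium markers, 10 were tested, all 10 had a negative log2 difference and 7 passed the test as longer in epithelium, against 2.52% of all tested domains. Epcam, the gene of the marker that sets the gates apart, did not pass (log2 difference −1.95, limma adjusted p = 0.103). It carried 0.685 and 1.02 kb in mesothelium, against 5.35 and 4.47 kb in epithelium. Nkx2-1 carried 2.95 kb and no peak in mesothelium, against 28.1 and 33.7 kb in epithelium, and passed. Cdh1 passed too, with 8.04 and 1.03 kb in mesothelium, against 19.3 and 28.2 kb in epithelium. The 12 domains summed to 29.3 and 8.87 kb in mesothelium replicates 1 and 2, against 169 and 183 kb in epithelium.

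Sequence upstream of the gene start is shown for the members whose start lay under or next to a peak of a mesothelium library, so that the peaks described below can be placed. The 250 bases before the start are from RefSeq (build GRCm38.p6, the assembly named mm10), 5′ to 3′ on the strand of the gene, with CpG dinucleotides in capitals. The Meis1 stretch is chr11:19018970-19019219 on the minus strand, the Meis2 stretch chr2:116064620-116064869 on the minus strand, and the Pbx2 stretch chr17:34592009-34592258 on the plus strand.
Meis1: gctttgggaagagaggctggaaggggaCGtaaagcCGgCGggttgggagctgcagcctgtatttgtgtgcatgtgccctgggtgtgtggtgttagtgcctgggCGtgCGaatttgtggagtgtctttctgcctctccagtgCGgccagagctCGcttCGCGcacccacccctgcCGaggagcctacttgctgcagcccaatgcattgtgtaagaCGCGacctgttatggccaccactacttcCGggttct
Meis2: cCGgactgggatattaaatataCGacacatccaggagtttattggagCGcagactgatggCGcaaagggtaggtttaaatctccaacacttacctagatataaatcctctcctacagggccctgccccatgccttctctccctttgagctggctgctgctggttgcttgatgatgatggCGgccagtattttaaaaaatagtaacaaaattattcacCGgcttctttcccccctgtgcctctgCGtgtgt
Pbx2: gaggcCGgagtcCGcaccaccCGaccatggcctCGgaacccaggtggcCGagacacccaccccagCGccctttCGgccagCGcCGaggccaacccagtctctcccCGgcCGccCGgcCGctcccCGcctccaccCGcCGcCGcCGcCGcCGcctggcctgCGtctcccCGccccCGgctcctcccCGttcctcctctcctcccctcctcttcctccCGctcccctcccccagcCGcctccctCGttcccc
The Pbx2 stretch held 27 CpG dinucleotides, the Meis1 stretch 13 and the Meis2 stretch 7, against a median of 6 over 32851 windows. Of the 8 genes, 5 had a start in that table, these and Meis3 and Pbx4. Windows of 300 bases, from 250 before to 50 after the start, were searched on both strands for TGACAG, the core bound by MEIS and PKNOX proteins, and TGATNNAT, a core bound by PBX-HOX pairs. Neither motif was found in the 5 windows, while 19.2% and 8.85% of all windows held them. That says only that these letters are not in these windows.

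Among the 8 genes, acetylated length passed the test as longer in mesothelium at Meis1 and Meis2, and no other member passed it in either direction. Of the 7 tested members, 2 were called longer in mesothelium, as were 1.39% of all 10485 tested domains. None was called longer in epithelium, as were 2.52% of all (3.91% in either direction). The fit was limma on log2(kb + 0.5), median-centred, with Benjamini-Hochberg adjusted p under 0.05 over all tested domains. At an unadjusted p under 0.05 were also Pbx3 and Pbx4, both shorter in mesothelium, and 17.7% of all domains reached that level. The 7 log2 differences ran from −2.07 (Pbx4) to 4.35 (Meis1), with a median of 0.16 against 0.03 over all tested domains. The 2 cell types did not overlap in length at 4 of the 7, Meis1 and Meis2 with longer and Pbx3 and Pbx4 with shorter domains in mesothelium. This happened at 47.8% of all tested domains, so that count is near the background.

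**Figure D1:**
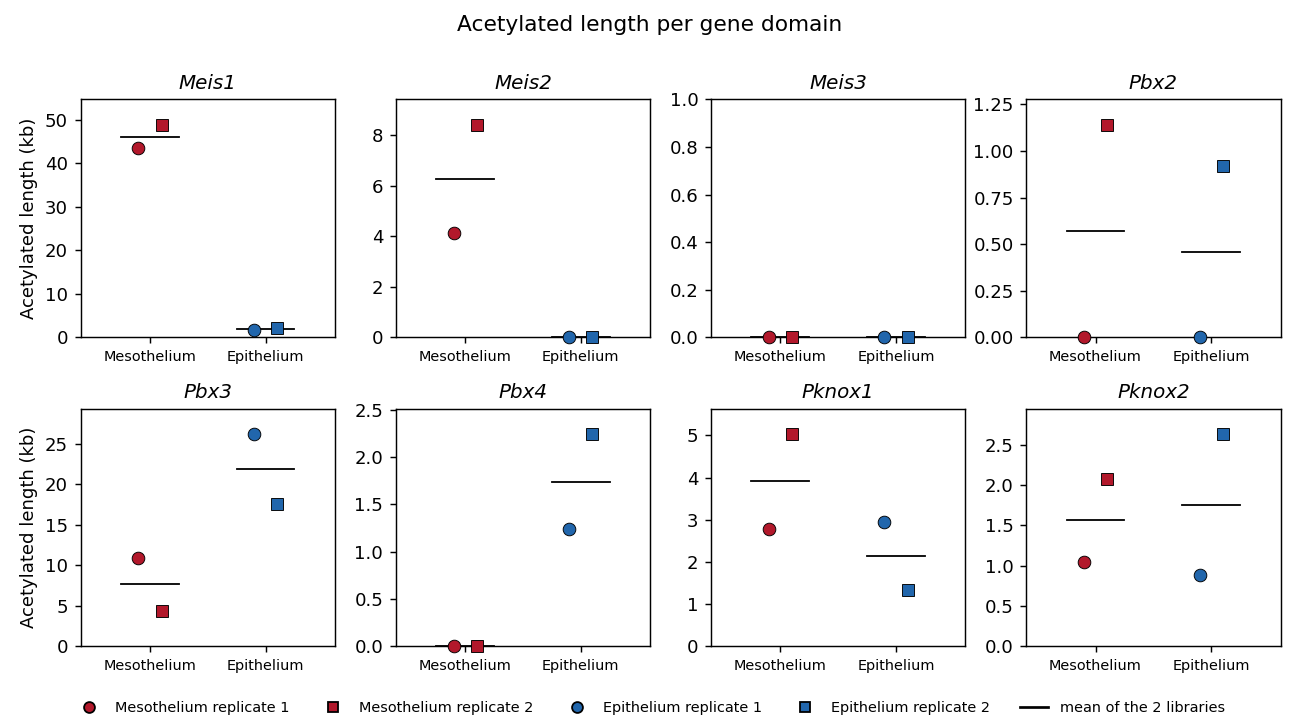
Acetylated length (kb, vertical axis, a different scale in each panel) of the 8 gene domains in each Mesothelium and Epithelium library, with the mean of each cell type as a line. Meis1 had 43.4 and 48.8 kb in mesothelium and at most 2.08 kb in epithelium, Pbx3 was longer in both epithelium libraries, and Meis3 had no peak.

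**Figure D2:**
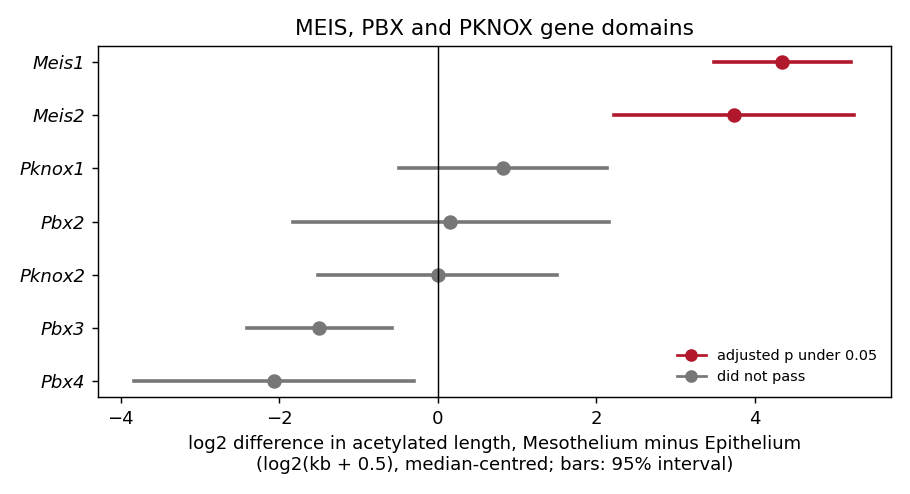
Log2 difference in acetylated length, Mesothelium minus Epithelium, with its 95% interval from limma for the 7 tested genes. Meis1 and Meis2 passed at an adjusted p under 0.05 (red), and the intervals of Pbx3 and Pbx4 lie below 0 before adjustment.

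Meis1, a MEIS factor best known from blood stem cells and leukaemia and from heart and limb development, had one of the longest acetylated domains in mesothelium and a short one in epithelium. Its domain (chromosome 11, 18830428 to 19069651, mm10, gene body 18880428 to 19019651) overlaps no other coding gene but holds the noncoding genes 8430419K02Rik, Gm16141 and 4933406G16Rik, and a peak belongs to no strand. It carried 43.4 and 48.8 kb under 23 and 22 peaks in mesothelium, against 1.68 and 2.08 kb under 2 and 3 peaks in epithelium. Every mesothelium value lay far above every epithelium value. The log2 difference was 4.35 (SE 0.42, 95% interval 3.49 to 5.22, limma adjusted p = 4.02e-06), the fifth largest of all tested domains. That rank depends on the 0.5 kb added to each length. With 0.1 kb added Meis1 was at 4.62 and Col3a1, which had no epithelium peak, at 6.81. With 1 kb added they were at 4.08 and 3.58. By length Meis1 ranked 12 and 11 among the 11162 and 11941 domains with a peak in the mesothelium libraries, and 5426 and 4420 among the 11938 and 11927 of the epithelium libraries. It held 0.121% and 0.123% of all acetylated sequence of the mesothelium libraries, and 0.00379% and 0.00502% of that of the epithelium libraries.

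Per length, peaks covered 18.2% and 20.4% of the Meis1 domain in mesothelium and 0.704% and 0.869% in epithelium, where the median domain with a peak was covered to 2.63% and 3.15% in mesothelium and 2.75% and 2.62% in epithelium. By this share Meis1 ranked lower than by length, since 363 and 477 domains had a larger covered share in the mesothelium libraries. Most of the mesothelial length lay in the gene body (38.0 and 40.4 kb). Cover was densest near the gene start and thinned along the gene. In the first 20 kb of the gene, 64.4% and 61.1% of the bases were under mesothelium peaks and none under epithelium peaks. From 20 to 50 kb the mesothelium shares were 33.7% and 30.6%, again with no epithelium peak. From 50 to 100 kb they were 20.6% and 26.8% in mesothelium, against 1.07% and 1.23% in epithelium, and beyond 100 kb 12.2% and 12.6% in mesothelium, against 2.97% and 3.04% in epithelium. Upstream of the start, Mesothelium replicate 2 carried 2.90 kb and the other 3 libraries had no peak, whereas the 50 kb beyond the other end of the gene held 5.46 and 6.25 kb in mesothelium, against no peak and 0.291 kb in epithelium.

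**Figure D3:**
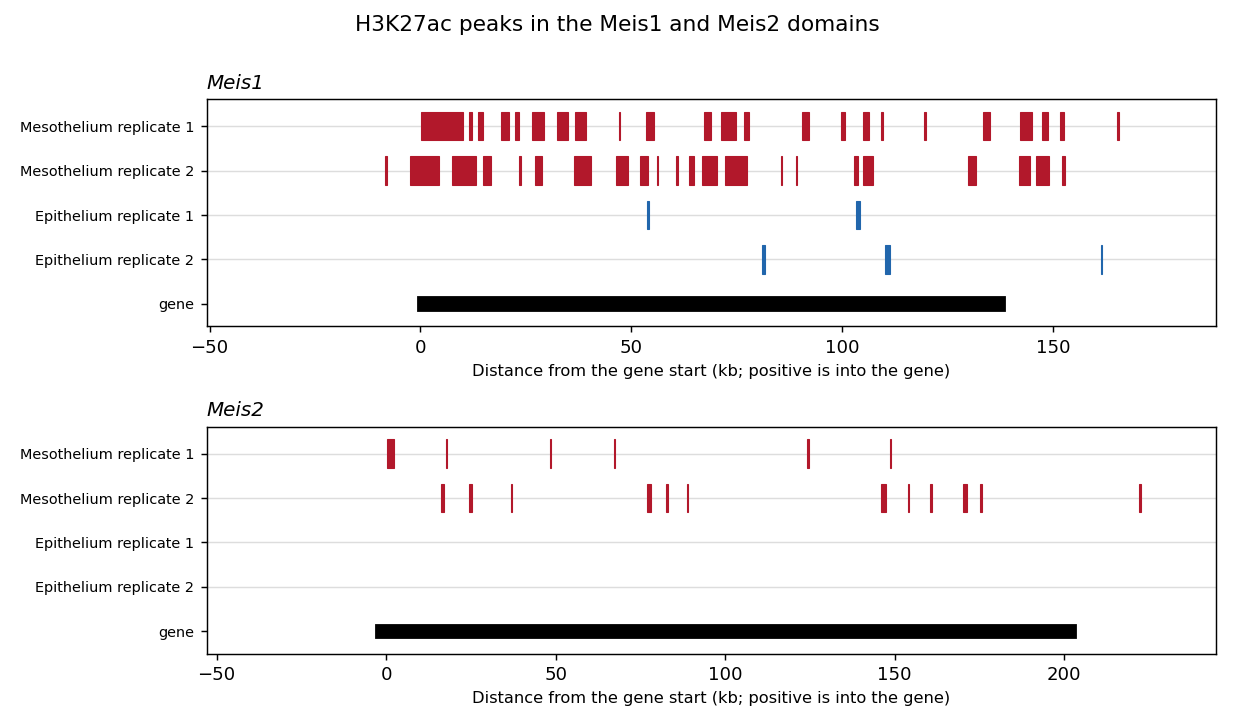
Peaks of each library in the Meis1 and Meis2 domains, by distance from the gene start in kb (horizontal axis), with the gene body in black. Meis1 peaks of the 2 Mesothelium libraries run along the whole gene, cover it most densely in the first 20 kb (64.4% and 61.1% of the bases) and often coincide, whereas those of Meis2 do not coincide and epithelium has none there.

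The peaks were merged across libraries into elements wherever they overlapped by at least 1 bp. The Meis1 domain held 32 elements, 12 of them mesothelium-only, that is, with a peak in each mesothelium library and no epithelium peak. Genome-wide 2.6% of 132212 elements showed it. None of these 32 was epithelium-only or present in all 4 libraries, 1 was present in 3 libraries, 1 in a single library of each cell type (5.34% genome-wide) and 18 in 1 library. The 12 were 1.17 to 15.8 kb wide with a median of 3.02 kb, against 1.52 kb over all mesothelium-only elements, and together held 31.2 and 41.1 kb of mesothelium peaks. The widest of them spanned 15.8 kb (19005715 to 19021472) and covered the gene start. It was also the widest of the 3444 mesothelium-only elements. Mesothelium replicate 1 covered 10.8 kb of it and replicate 2 12.7 kb. The next widest (18941147 to 18947789, 6.64 kb) lay 71.2 kb into the gene and ranked 9 among all mesothelium-only elements. Another 3 (3.01, 2.99 and 1.17 kb) lay beyond the far end of the gene, 142, 146 and 152 kb from its start.

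The promoter window shown above was covered in full by a peak of Mesothelium replicate 2 that was 6901 bp wide. In replicate 1 the nearest peak, 10014 bp wide, began 202 bp inside the gene. In epithelium the nearest peaks lay 53.7 and 81.0 kb into the gene. Both mesothelium libraries thus had a broad peak at or just inside the start, while the window itself was under a peak in one of them. For comparison, 2.82% of the 17491 coding genes in the promoter table had a window with a peak in each mesothelium library and no epithelium peak, and Meis1 is not one of them. The reverse held for 1.21% of these genes and for none of the 5 members in the table.

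The mesothelium libraries coincided more at Meis1 than over the genome, given here without a test. They shared 23.2 kb of 69.0 kb covered by either (Jaccard index 0.337, the shared bases over the bases covered by either), against 0.132 genome-wide. Of the Meis1 peaks, 15 of 23 in replicate 1 and 14 of 22 in replicate 2 overlapped a peak of the other replicate (65.2% and 63.6%), against 26.8% and 25.1% of the whole lists. The 5 epithelium peaks shared no base between replicates. The Meis1 peaks of mesothelium were also wider than most of their lists, and the part of peak width in these shares was not tested.

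The Meis1 peaks stood out more by width than by the deposited fold enrichment. Within its own list, the widest Meis1 peak ranked 6 of 39006 in Mesothelium replicate 1 and 29 of 41524 in replicate 2. The median Meis1 peak was 1412 and 1788 bp wide in mesothelium, at the 81.7 and 87.8 percentile of its list. The median fold enrichment over the peak caller's background, the authors' own value per peak, was 3.64 and 3.97, at the 53.6 and 65.3 percentile. Of these peaks 39.1% and 63.6% had a −log10 q of at least 2, against 31.5% and 53.1% of the whole lists, and none reached 4. At a −log10 q minimum of 2 the log2 difference grew to 5.68 but lost its call (limma adjusted p = 0.0675), and with peaks at least 1 kb wide it was 4.70 (adjusted p = 0.162). Under those 2 settings limma called no domain of the genome, with 963 and 1649 at an unadjusted p under 0.05.

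**Figure D4:**
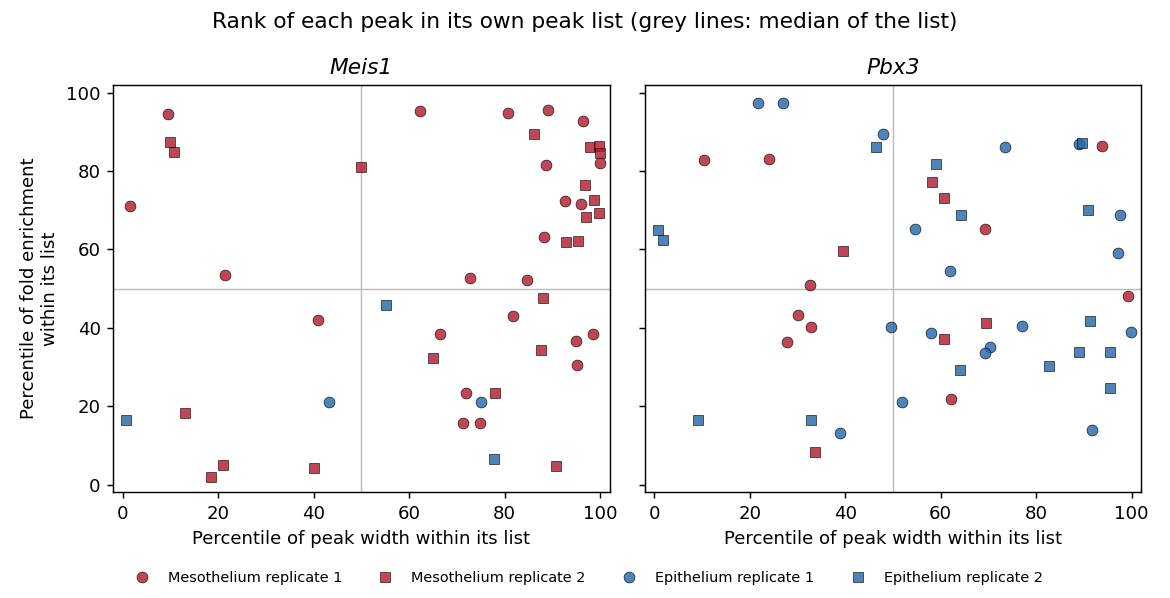
Percentile of each Meis1 and Pbx3 peak within the peak list of its own library, by width (horizontal axis) and by deposited fold enrichment (vertical axis), with the list median in grey. Meis1 peaks of the Mesothelium libraries gather at the wide end and spread over the range of fold enrichment.

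The neighbours of Meis1 did not follow it. Spred2, on one side, carried 5.18 and 7.74 kb in mesothelium, against 16.2 and 16.3 kb in epithelium (log2 difference −1.23, SE 0.42, limma adjusted p = 0.107). Etaa1, on the other, had no peak and 7.55 kb in mesothelium, against 2.12 and 1.25 kb in epithelium (log2 difference −0.03, limma adjusted p = 0.992).

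Meis2, a MEIS factor with known roles in neural crest, heart and limb, also had a longer domain in mesothelium, although its peaks were small and fell at different places in the 2 libraries. Its domain (chromosome 2, 115820019 to 116117537, gene body 115861264 to 116067537) carried 4.13 and 8.41 kb under 6 and 12 peaks in mesothelium, and no peak in either epithelium library. The cell types did not overlap. The fitted log2 difference was 3.74 (SE 0.73, 95% interval 2.23 to 5.26, limma adjusted p = 0.00493). It depends on the 0.5 kb added to the empty epithelium values and is no measure of fold. With 0.1 kb added, Meis2 lost its call (limma adjusted p = 0.0888), as it did without Mesothelium replicate 2 (adjusted p = 0.105), at a −log10 q minimum of 2 (adjusted p = 0.234) and with peaks at least 1 kb wide (adjusted p = 0.174).

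All 18 Meis2 elements were present in 1 library, as were 80.8% of all elements genome-wide. The mesothelium libraries shared no base among 12.5 kb covered by either, where the Jaccard index was 0.132 genome-wide. Over the whole lists, 26.8% and 25.1% of the mesothelium peaks overlapped a peak of the other replicate, so little overlap is common. Peaks covered 1.39% and 2.83% of the domain, and the median Meis2 peak was 445 and 603 bp wide, at the 29.4 and 48.8 percentile of its list. The widest, 1983 bp in Mesothelium replicate 1, began 301 bp inside the gene, next to the sequence shown above. The nearest peak of replicate 2 lay 16.1 kb into the gene. No library had a peak over the Meis2 promoter window, which held for 60.9% of coding genes in the table. The domains on either side, BC052040 and Tmco5, did not pass the test. BC052040 carried 4.06 and 6.77 kb in mesothelium, against 7.58 and 2.43 kb in epithelium.

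Meis3, the third MEIS gene, had no peak in its domain (chromosome 7, 16167538 to 16191864) in any library and was not tested. The nearest peaks lay at −45.4 kb, upstream of its start, in Mesothelium replicate 1, 44.4 kb past the start in replicate 2, and 36.4 and 46.2 kb past it in epithelium. Absence from a list says that nothing passed the peak caller's minimum, not that acetylation is absent.

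Pbx3, a PBX factor that partners MEIS and HOX proteins, had the longest domain of the 8 in epithelium and a shorter one in mesothelium, a difference that did not pass the adjustment. Its domain (chromosome 2, 34121457 to 34389407, gene body 34171457 to 34372045) carried 10.9 and 4.41 kb under 10 and 6 peaks in mesothelium and 26.2 and 17.6 kb under 18 and 15 peaks in epithelium. Both mesothelium values lay below both epithelium values. The log2 difference was −1.5 (SE 0.44, 95% interval −2.41 to −0.58, limma adjusted p = 0.059). Without Mesothelium replicate 1, the longer of the mesothelium pair, it was −2.16 and passed (limma adjusted p = 0.000141), and without Mesothelium replicate 2 it was −0.79 (adjusted p = 0.236). It passed under 5 other alternatives. Mesothelium replicate 1 also had the larger sum over the epithelium markers, 29.3 kb against 8.87 kb in replicate 2, and the part of epithelial cells in its Pbx3 length was not tested. By length, Pbx3 ranked 544 and 2240 in the mesothelium libraries and 118 and 252 in the epithelium libraries.

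Along Pbx3, counted from the gene end with the higher coordinate, the cell types differed without overlap in the first 50 kb and between 150 and 200 kb. The first 50 kb held 6.19 and 1.22 kb in mesothelium, against 19.3 and 8.20 kb in epithelium. From 50 to 100 kb the values were 1.27 and 1.33 kb in mesothelium, against 0.401 and 3.98 kb in epithelium, and the cell types overlapped, as they did from 100 to 150 kb (3.03 kb and no peak in mesothelium, against 2.62 and 3.59 kb in epithelium). From 150 to 200 kb the values were 0.434 and 0.801 kb in mesothelium, against 3.46 and 1.87 kb in epithelium. These bins carry no test. Of 33 elements in the domain, 1 was epithelium-only, 6 were present in 3 libraries, 2 in 1 library of each cell type and 24 in 1 library. The epithelium-only element (34358812 to 34365360, 6.55 kb) ranked 19 by width among 4379 such elements. Epithelium replicate 1 covered all of it and replicate 2 covered 1.71 kb. The epithelium libraries shared 5.40 kb of 38.5 kb (Jaccard index 0.140, the same as genome-wide) and the mesothelium libraries 0.731 kb of 14.6 kb (0.0501, against 0.132 genome-wide). The neighbour Mvb12b showed the same order of values, with 9.88 and 10.4 kb in mesothelium, against 22.5 and 22.8 kb in epithelium (log2 difference −1.06, SE 0.35, limma adjusted p = 0.1). Mapkap1 on the other side overlapped between cell types.

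**Figure D5:**
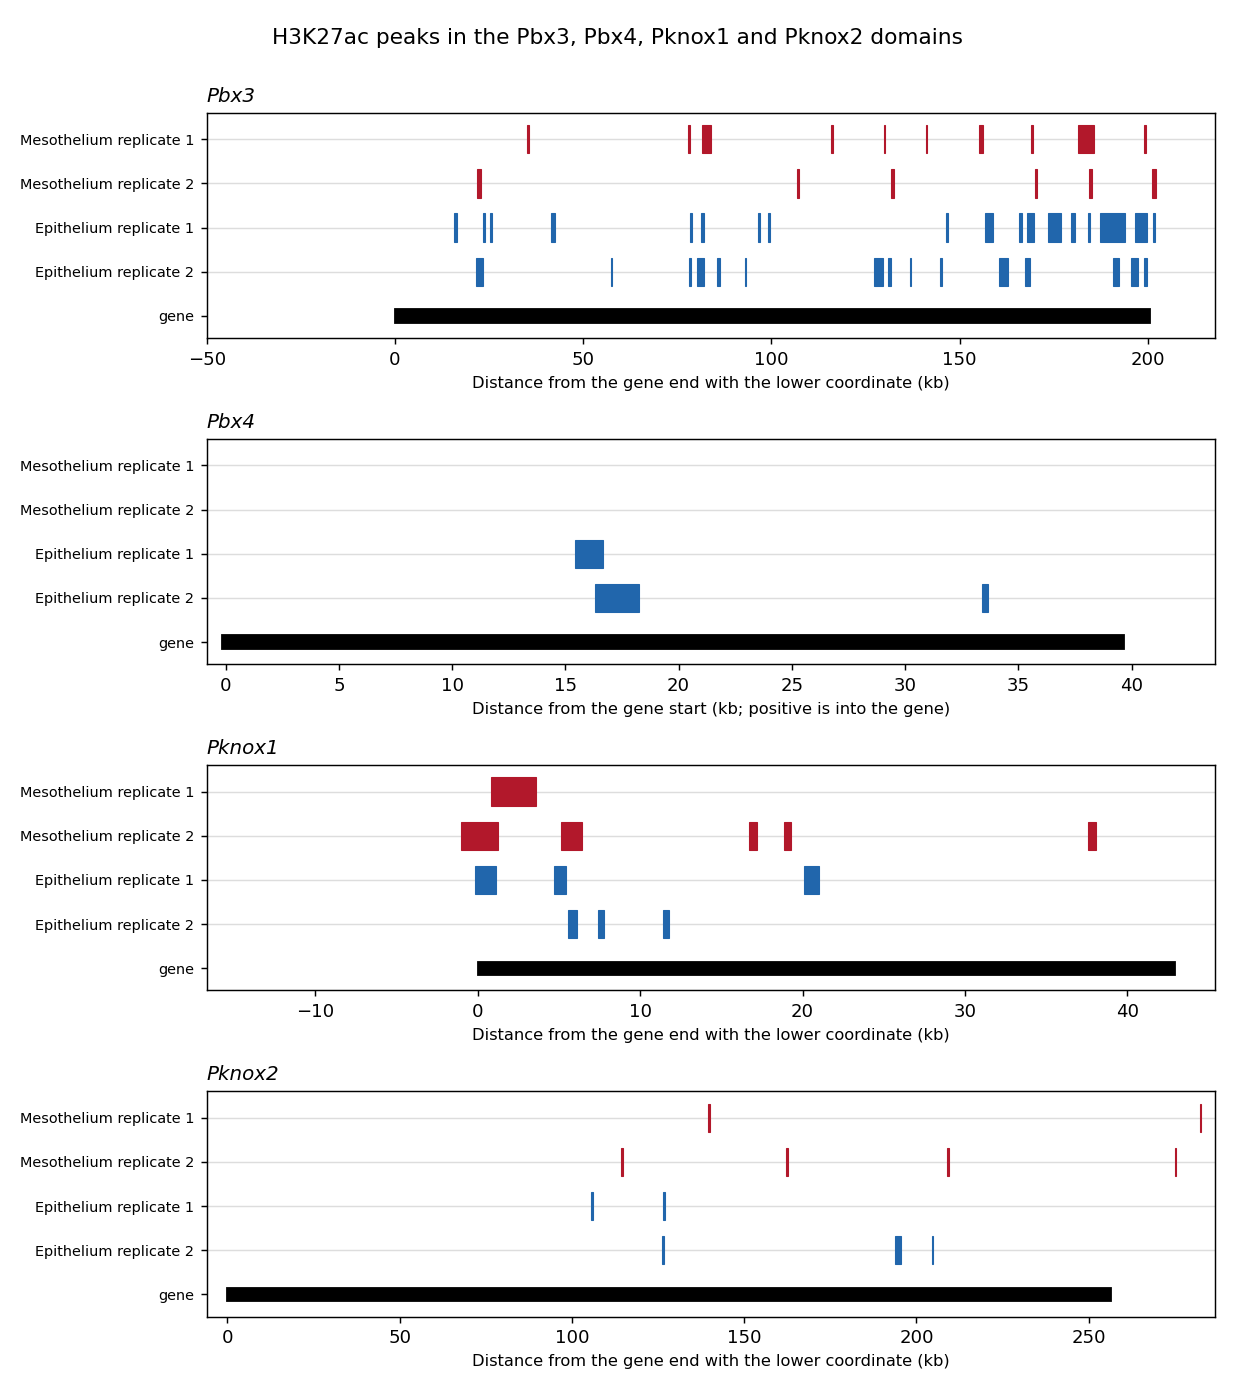
Peaks of each library in the Pbx3, Pbx4, Pknox1 and Pknox2 domains, by distance in kb from the gene start (Pbx4) or from the gene end with the lower coordinate (the others), with the gene body in black. Pbx3 has 18 and 15 peaks in Epithelium, the widest of them (6549 bp) near the higher end of the gene, and Pbx4 has peaks in Epithelium alone.

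Pbx4, a PBX gene known in mice mainly from the testis, had no peak in mesothelium, against 1.24 and 2.24 kb in epithelium (chromosome 8, domain 69831789 to 69876328). The fitted log2 difference of −2.07 (SE 0.85, 95% interval −3.83 to −0.30) did not pass (limma adjusted p = 0.197) and again depends on the added 0.5 kb. The epithelium peaks met in 1 epithelium-only element, 2.82 kb wide (69848064 to 69850887) and 15.4 kb into the gene, in which the libraries shared 0.369 kb. The Pbx4 promoter window had no peak in any library.

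Pbx2, a broadly expressed PBX gene, lies in a dense stretch of chromosome 17, and its domain of 5.42 kb (34592007 to 34597429) is cut short by Gpsm3 and Ager. It carried no peak and 1.14 kb in mesothelium, against no peak and 0.917 kb in epithelium. The cell types overlapped (log2 difference 0.16, SE 0.96, 95% interval −1.83 to 2.16, limma adjusted p = 0.958), and replicate 2 of each cell type held the only peaks. They lay at opposite ends of the gene. The Mesothelium replicate 2 peak, 1865 bp wide with a −log10 q of 2.64, covered the whole promoter window shown above. The Epithelium replicate 2 peak, 2394 bp wide with a −log10 q of 2.39, began 4.25 kb into the gene and ran into the Ager domain. Ager encodes a receptor of alveolar type 1 cells and had 1.48 kb in that library and no peak in the other 3.

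Pknox1 and Pknox2, also called PREP1 and PREP2, compete with MEIS proteins for PBX partners. Pknox1 (chromosome 17, domain 31548024 to 31610157) carried 2.79 and 5.03 kb in mesothelium, against 2.95 and 1.33 kb in epithelium. The cell types overlapped, with a log2 difference of 0.82 (SE 0.63, 95% interval −0.49 to 2.14, limma adjusted p = 0.536). Its main element, 4.62 kb wide (31563687 to 31568302) across the gene end with the lower coordinate, was present in both mesothelium libraries and Epithelium replicate 1. A second element 1.74 kb wide, inside the gene, was present in Mesothelium replicate 2 and both epithelium libraries. The Pknox1 peak with the largest fold enrichment (5.17), in Mesothelium replicate 2, had a −log10 q of 4.04. It was one of 2 peaks of the 8 genes with a −log10 q of at least 4.

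Pknox2 (chromosome 9, domain 36884953 to 37177782) carried 1.05 and 2.08 kb in mesothelium, against 0.886 and 2.63 kb in epithelium, spread over 293 kb. The log2 difference was 0.00 (SE 0.73, 95% interval −1.51 to 1.51, limma adjusted p = 1.0). Of its 10 elements, 9 were present in 1 library and 1, 0.834 kb wide (37017124 to 37017957), was epithelium-only. The other peak with a −log10 q of at least 4 was here, in Epithelium replicate 2 (fold enrichment 5.68, −log10 q 4.45).

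Over the 8 domains together, 105 elements were found. Of these 12 were mesothelium-only (11.4%, against 2.6% genome-wide), and all 12 lay in the Meis1 domain. Another 3 were epithelium-only, 1 each at Pbx3, Pbx4 and Pknox2 (2.86%, against 3.31% genome-wide). None was present in all 4 libraries (3.24% genome-wide), 9 were present in 3 (4.75% genome-wide) and 78 in 1 library (74.3%, against 80.8% genome-wide). Raising the −log10 q minimum to 2 left 5 mesothelium-only and 0 epithelium-only elements, and raising it to 4 left 0 of each.

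Of 9 other TALE genes (Irx1 to Irx6, Mkx, Tgif1 and Tgif2), chosen with earlier results of these data known, 7 were tested. None was called longer in mesothelium and 4 were called longer in epithelium, against 2.52% of all tested domains. The 4 were the Iroquois genes Irx1, Irx2, Irx3 and Irx5, of which Irx5 carried 0.802 kb and no peak in mesothelium, against 12.5 and 22.6 kb in epithelium (log2 difference −4.37, SE 0.65, limma adjusted p = 0.000585). The median log2 difference of the 7 was −2.89, against 0.03 over all tested domains. Of the co-repressor genes, Tgif2 carried 0.648 and 0.420 kb in mesothelium, against 4.37 and 3.81 kb in epithelium (limma adjusted p = 0.097), and Tgif1 had an adjusted p of 0.63 in the same limma fit. HOX proteins bind DNA with MEIS and PBX proteins. Of 39 HOX genes, 29 had no peak in any library, against 5257 of all 21883 domains. Domains are cut midway to neighbouring coding genes, so an empty Hox domain says little about its cluster. Of the 39, 7 were tested, with a median log2 difference of 2.11. Of the 7, Hoxa3 and Hoxb3 were called longer in mesothelium, against 1.39% of all tested domains, and none was called longer in epithelium. In mesothelium Hoxa3 carried 11.2 and 17.7 kb and Hoxb3 19.2 and 18.9 kb. As annotated, these 2 genes overlap neighbouring Hox genes, which then share their peaks.

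The EPCAM- gate could also hold mesenchyme, in which MEIS genes are known to be active. Of 10 mesenchyme markers, 7 were tested and 2, Col3a1 and Tbx5, were called longer in mesothelium, against 1.39% of all tested domains. The median log2 difference of the 7 was 1.4, against 0.03 over all tested domains. The 10 domains summed to 24.6 and 39.1 kb in mesothelium, against 3.67 and 3.48 kb in epithelium. Col3a1 carried 9.05 and 12.3 kb in mesothelium and no peak in epithelium. Its log2 difference of 4.53 was the largest of all tested domains (limma adjusted p = 0.000585), a rank that depends on the added 0.5 kb. Tbx5 carried 8.37 and 12.7 kb in mesothelium, against no peak and 0.324 kb in epithelium (log2 difference 4.13, limma adjusted p = 0.0011). Among the defining genes, Tcf21 had 0.354 and 0.571 kb in mesothelium and no peak in epithelium, Pdgfra had 1.09 kb and no peak in mesothelium, against no peak and 0.555 kb in epithelium, and Col1a1 had no peak and 2.62 kb in mesothelium, against no peak and 1.55 kb in epithelium. Of 5 endothelium markers, 3 were tested and Kdr alone was called, as longer in mesothelium, against 1.39% of all tested domains. Kdr had 2.80 and 2.81 kb in mesothelium and no peak in epithelium (limma adjusted p = 0.0497). That call was lost under 13 of 17 alternatives, among them leaving out any 1 library. Pecam1, the gene of CD31, carried 5.43 and 1.52 kb in mesothelium, against 2.31 and 1.92 kb in epithelium, and was not called. The 5 domains summed to 9.46 and 4.75 kb in mesothelium, against 4.49 and 4.89 kb in epithelium. The 3 blood markers summed to at most 0.296 kb in mesothelium and 1.74 kb in epithelium. Ptprc, the gene of CD45, had no peak in mesothelium, against no peak and 0.979 kb in epithelium. The part of other cells in the Meis1 and Meis2 differences was not tested.

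The domains most like that of Meis1 over the 4 libraries, by Euclidean distance of the centred log2 lengths, were Bnc2 (distance 1.22), Zfpm2 (1.31), Arhgap28 (1.39), Fbn1 (1.41) and Tspan5 (1.77). Bnc2, a basonuclin zinc-finger gene, carried 18.9 and 54.8 kb in mesothelium, against 1.99 and 1.77 kb in epithelium. Fbn1, which encodes the matrix protein fibrillin, carried 24.8 and 27.9 kb in mesothelium, against 3.03 and 3.13 kb in epithelium. The domains most like that of Meis2 were Mgat3 (0.30), Tek (0.50), Rcsd1 (0.60), Wnt9a (0.74) and Bnc1 (0.78), all without a peak in epithelium. These distances describe 4 libraries and carry no test.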

How the data were processed

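H3K27ac peaks of 4 libraries, 2 per cell type, were grouped by their titles. The build mm10, Bowtie2 2.5.3 and MACS2 2.2.9.1 are named by the submitters' processing notes, along with bedtools 2.31.1, cutadapt 4.8 and others, with no roles given. Caller settings are not stated in the sources used here. Peak names show that the authors called broad peaks per library. Each deposited peak has a ratio (fold over background), a −log10 p and a −log10 q. Its deposited score, 10 times the −log10 q in whole numbers except at 12 peaks, was not used.

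Gene positions came from RefSeq (GRCm38.p6), of whose coding genes 17.5% overlap another. The fit used limma 3.58.1 in R 4.3.3 with an intensity trend on log2(kb + 0.5). Lengths were centred on the median of the 6918 domains that have peaks in every library, and domains averaging under 0.5 kb were left out. In 20 simulated sets of 10485 domains, 200 domains were changed. Changes of 1, 2, 3 and 4 on the log2 scale were recovered at 3.3%, 28.4%, 65% and 90.6%, with 4.54% false calls. Whether these rates hold for domains that lack a peak in some library was not tested. Peaks were not tested by count, since the lists hold none. Elements, ranks and overlaps are descriptions, since 2 libraries against 2 cannot go below an exact p of 0.333. Intervals and figures were computed in Python 3.11.15 (numpy 2.4.6, pandas 2.3.3, matplotlib 3.10.9). The genes, lists and tests were chosen with earlier results of these data known. All 8 genes are named, as are the defining list genes, a selection of the other list genes and the 5 domains nearest to Meis1 and Meis2. Several list genes that were called are counted but not named. The alternatives are the peak threshold, peak width, peak number, pseudocount, filter, scaling, domain, element rules, replicate block and leaving out each library.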

Additional observations from a re-analysis of the deposited data

How the results depend on the processing

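Meis1 kept its direction under all 19 alternatives that gave a value (log2 difference 4.08 to 5.68, limma adjusted p 2.76e-16 to 0.162) and Meis2 under 19 (2.34 to 5.98, adjusted p 0.000445 to 0.234). When the −log10 q minimum was 2, Meis1 (5.68) and Meis2 (2.34) lost their calls, and so they did with peaks at least 1 kb wide (4.70 and 2.63). Meis2 also lost it with 0.1 kb added (5.98). Leaving out a library gave 4.15 to 4.48 for Meis1 and 3.37 to 4.16 for Meis2, not called without Mesothelium replicate 2. Pbx3 was called with 1 kb added (−1.44), without a filter (−1.5), with a mean of at least 2 kb (−1.5), with domains not cut at neighbours (−1.67) and with the replicate number as a block (−1.5, adjusted p = 0.0224), and ranged from −2.16 to −0.79 when a library was left out. Pbx4 and Pknox1 were not called under any alternative run. The sign of Pbx2 turned at a −log10 q minimum of 2 (−0.2), and it ranged from −0.67 to 0.97 when a library was left out. The Pknox2 difference was 0.00 in the main fit, so its sign carries no meaning. It was 0.02 with 0.1 kb added, 0.07 with total length scaling, 0.02 with flanks of up to 100 kb and 0.16 with uncut domains. When a library was left out, Pknox2 ranged from −0.67 to 0.59. The cause was not tested.

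Domains called longer in mesothelium (146) and in epithelium (264) numbered 0 and 0 at a −log10 q minimum of 2 (963 at an unadjusted p under 0.05 in limma), which moved the median of all domains to 0.3, 0 and 0 at a minimum of 4 (23), where it was 1.11, 0 and 0 with peaks at least 1 kb wide (1649), and 1 and 0 with 0.1 kb added (1653), the 1 being Meis1. They were 87 and 190 without centring, 87 and 103 scaled to total length, which moved the median of all domains to 0.11, and 95 and 125 after quantile normalization. Leaving out a library gave 110 to 172 and 81 to 470, the epithelium count being 470 when Mesothelium replicate 1 was left out, and 119 and 81 when Epithelium replicates 1 and 2 were. The difference of Col1a1 turned with uncut domains (−0.07) and ranged from −0.86 to 1.63 when a library was left out, and that of Pecam1 ranged from −0.35 to 1.34.

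The 12 mesothelium-only elements numbered 5 and 0 at −log10 q minimums of 2 and 4, and 12 to 42 when a library was left out, since fewer libraries must then hold or lack a peak. The 3 epithelium-only elements numbered 0 and 0 there, 5 when a library had to cover 25% of an element, and 4 to 21 when a library was left out. Elements in all libraries numbered 1 with peaks up to 500 bp apart merged and 0 to 4 when a library was left out. Deviations of equal replicate numbers were nearly uncorrelated (r = 0.03 over 10485 domains), so the numbers were not taken as pairs; the replicate block gave 202 and 340 calls and changed the call of Pbx3 alone among the 8 genes. Depth is unknown, and 2 libraries per cell type with low overlap limit every value here.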
